A study of Rattus norvegicus with 18 samples.

Results

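After 13 weeks of cigarette smoke, whole rat lung was compared with lung of rats that breathed fresh air in 6 samples, out of 18 in the study. The 6 were chosen by the exposure time given in their titles. They comprise a low dose (300 µg total particulate matter per litre of air) and a high dose (600 µg per litre), each with lungs taken 2, 6 and 20 hours after the last exposure. The remaining 12 samples hold the same design after 2 and 7 weeks, with 6 samples each. Rats inhaled through the nose only, 2 times a day for 1 hour with a fresh-air break of 30 min, on 5 days a week. Each sample is a single pool of RNA from 4 exposed rats set against a pool of 4 fresh-air rats, and the sources used here name no strain, sex or age. Both doses of an hour share their control pool, so 13 weeks has 3 control pools and no repeated condition. Smoke RNA carried the Cy5 dye and air RNA the Cy3 dye in every sample. A constant dye effect of a gene would therefore add to its value against air, while it cancels between weeks and between doses.

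Cigarette smoke carries aromatic hydrocarbons, which activate the aryl hydrocarbon receptor (AhR), a transcription factor that switches on enzymes such as Cyp1a1. It also carries oxidants and electrophiles, to which cells respond through the factor NRF2 with antioxidant and conjugating enzymes. In the lung, repeated smoke is known to draw in and activate macrophages and neutrophils, while alveolar, airway and connective tissue cells carry the burden of injury and repair.

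Every value is a log2 ratio of smoke over air: 0 means no difference, 1 a doubling and -1 a halving. That the ratio runs in this direction is taken from the dye labels, since the table does not state it. The 6 samples gave values for 4055 to 4506 of 4616 genes, with sample medians between 0 and 0.01. The low-dose and high-dose ratios of an hour were averaged, and the 3 hour values of a gene were tested against 0 with limma. Errors are limma's standard errors (SE) over n = 3 hours, and adjusted p-values come from the Benjamini-Hochberg method over all genes tested. The spread over 3 hours holds real change with time as well as differences between pools, which cannot be told apart. An exact sign-flip test on 3 values could not go below p = 0.25, so the tests below rest on limma's pooled spread.

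Of 3836 genes with a value at all 3 hours, 113 passed an adjusted p of 0.05 against air (2.95%). They comprise 91 genes that rose (2.37%) and 22 that fell (0.574%), while 650 genes had p under 0.05 before adjustment. Among the 91, 83 lay above air in all 6 samples, and of the 22, 20 lay below air in all 6. Over all genes tested, 7.87% lay above air in all 6 samples and 5.37% below. The count of 113 rested on all 3 hours. Without the 20 hour samples 34 genes passed (0.886%), and without the 6 hour samples 39 (1.01%). Without the 2 hour samples 3 passed (0.0723%), namely Lcn2, Lgals3 and S100a9. Before adjustment 362, 674 and 439 genes had p under 0.05 without the 20, 6 and 2 hour samples, in that order. Those fits have fewer values per gene, so the hours cannot be ranked by these counts. The low dose alone gave 27 calls (0.682%) and the high dose alone 116 (2.89%). Leaving out an hour ended every call named below in the lists of other xenobiotic enzymes, Wnt and growth factors, lymphocytes, alveolar cells, vessels, antigen presentation, ribosomal proteins and lipid metabolism, whichever hour it was.

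The largest rise was that of Cyp1a1, the cytochrome P450 that oxidises aromatic hydrocarbons and the classical target of AhR. Its log2 ratio was 6.31 and 6.37 at 2 hours (low and high dose), 3.72 and 3.32 at 6 hours, and 0.62 and 0.51 at 20 hours. The samples ranked by hour and not by dose, with no overlap between hours. The mean was 3.48 ± 0.77 (SE), or 11.1-fold, with an adjusted p of 0.0456. This call depends on how the hours are treated: over the alternatives, adjusted p ran from 1.48e-06 (9 pool means with weeks and hours as factors) to 0.462 (robust prior), and without the 2 hour samples the mean was 2.04 (adjusted p = 0.421).

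Nqo1, a quinone reductase that both AhR and NRF2 switch on, followed the same course. Its ratios were 2.29 and 2.85 at 2 hours, 1.48 and 1.66 at 6 hours, and 0.29 and 0.20 at 20 hours, all above air. The mean was 1.46 ± 0.32 (adjusted p = 0.0424, and 0.428 with the robust prior). Aldh3a1, the aldehyde dehydrogenase of the AhR battery, stood at 5.02 and 5.22 at 2 hours, 2.03 and 2.06 at 6 hours, and 0.48 and -0.04 at 20 hours. Its mean of 2.46 ± 0.66 did not pass (adjusted p = 0.0954). With hours as a factor over all weeks, its adjusted p was 2.53e-08, within a range of 2.53e-08 to 0.521 over the alternatives. Of 6 tested AhR genes, Cyp1a1 and Nqo1 rose and none fell. None of the 6 passed without the 2 hour or the 6 hour samples, and 3 passed without those of 20 hours. The median of the 6 was 1.63 at 2 hours, 1.06 at 6 hours and 0.19 at 20 hours, against 0 to 0.01 over all genes. Cyp1b1, a related P450, was at 0.09 ± 0.09 and did not pass (adjusted p = 0.624), and Ugt1a6, a conjugating enzyme, was at 0.47 ± 0.11 (adjusted p = 0.0570).

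**Figure D1:**
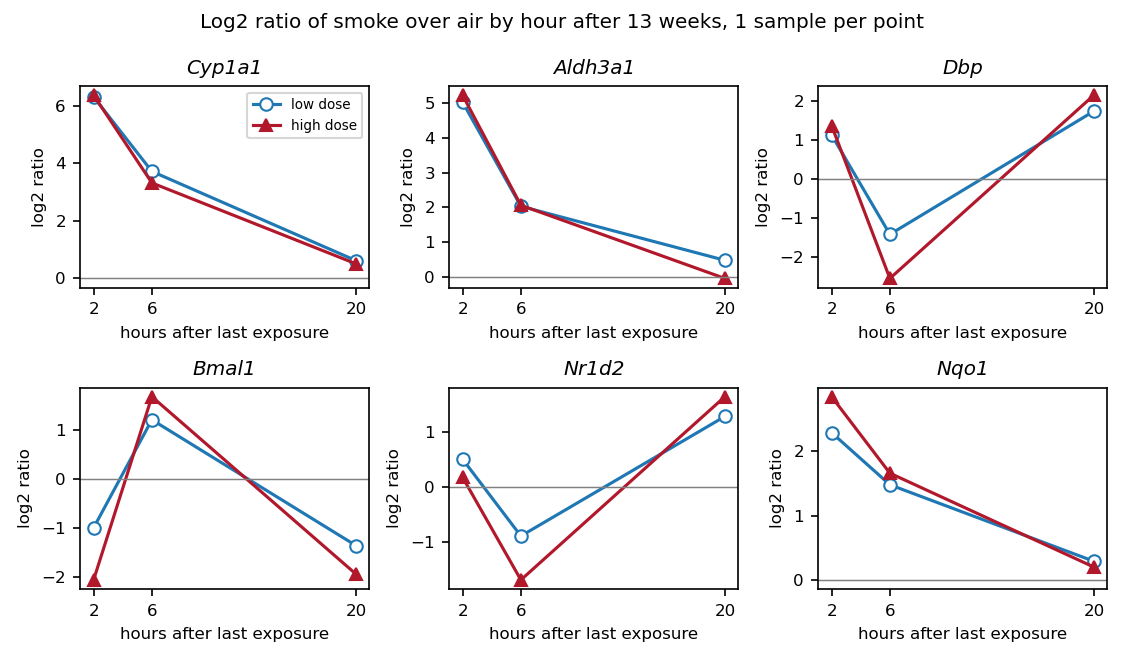
Log2 ratio of smoke over air (vertical axis) by hours after the last exposure (horizontal axis, 2, 6 and 20 hours) for the 6 genes whose ratio varied most over hours after 13 weeks, with 1 point per sample, low dose as open circles and high dose as triangles. Cyp1a1, Aldh3a1 and Nqo1 were nearest to 0 at 20 hours at both doses and highest at 2 hours (6.37, 5.22 and 2.85 at the high dose), while Dbp and Nr1d2 were below air at 6 hours and Bmal1 above it.

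NRF2 and oxidative stress defence genes rose in 5 of 26 members, with none falling. They were Nqo1, Sod2 (mitochondrial superoxide dismutase), Mt1 (the metal-binding metallothionein 1), Ftl1 (ferritin light chain, which stores iron) and Txn1 (thioredoxin). The list's median was 0.26, against 0 over all genes, 0.23 for ribosomal protein genes and 0.17 for reference genes. Sod2 read 1.31 and 1.55 at 2 hours, 1.10 and 1.11 at 6 hours, and 0.36 and 1.20 at 20 hours, a mean of 1.10 ± 0.12 (adjusted p = 0.00113). Mt1 lay between 0.76 and 1.23 in all 6 samples, with a mean of 1.00 ± 0.08 (adjusted p = 0.000333). In contrast to Cyp1a1, the samples of Mt1 overlapped between hours. Ftl1 was at 0.84 ± 0.12 (adjusted p = 0.00611) and Txn1 at 0.52 ± 0.10 (adjusted p = 0.0209). Hmox1, haem oxygenase 1, read 0.60 and 1.37 at 2 hours, 0.58 and 0.21 at 6 hours, and -0.18 and 0.57 at 20 hours. Its mean of 0.53 ± 0.13 did not pass (adjusted p = 0.0846, and 0.000359 to 0.443 over the alternatives). Gclc and Txnrd1, which make glutathione and reduce thioredoxin, were at 0.52 and 0.43 and did not pass. With weeks and hours as factors, where 333 of 3560 genes passed (9.35%), 11 of 25 members did, all higher. Without the 2 hour samples none passed, without those of 6 hours 3 and of 20 hours 4.

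Glutathione S-transferases, which conjugate electrophiles to glutathione, rose in 2 of 12 members. Gstp1, the pi-class enzyme, was at 0.70 ± 0.12 (adjusted p = 0.0154) and read 0.70 and 0.99 at 2 hours, 0.73 and 1.14 at 6 hours, and 0.32 and 0.30 at 20 hours. Gsto1 was at 0.49 ± 0.11 (adjusted p = 0.0445). Neither call held without the 2 hour or the 6 hour samples. The median of the 12 was 0.43 at 2 hours, 0.10 at 6 hours and 0.02 at 20 hours. Among 19 other xenobiotic enzymes none rose and 2 fell, both of them P450s: Cyp4b1 at -0.59 ± 0.08 and Cyp2a3 at -0.53 ± 0.11 (adjusted p = 0.00573 and 0.0345). All 6 samples of both lay below air, Cyp4b1 between -0.69 and -0.36 and Cyp2a3 between -1.0 and -0.03.

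The 8 called genes of these defence lists were looked up in the RefSeq promoter table for assembly GRCr8, which held 6 of them, each from 250 bases before to 50 after the gene's start. Promoters of Nqo1, Gstp1 and Mt1 are shown because they are 3 of the called genes with the letters searched, and they carry different combinations. Capitals mark matches, on either strand, to the core of the AhR response element, GCGTG, or to the antioxidant response element of NRF2, TGACNNNGC.
Nqo1: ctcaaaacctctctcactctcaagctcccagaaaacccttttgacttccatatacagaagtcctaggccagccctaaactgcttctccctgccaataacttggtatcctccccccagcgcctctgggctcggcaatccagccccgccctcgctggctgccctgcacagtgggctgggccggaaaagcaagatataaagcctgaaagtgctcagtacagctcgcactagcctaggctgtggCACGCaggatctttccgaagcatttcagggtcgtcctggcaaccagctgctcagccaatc
Gstp1: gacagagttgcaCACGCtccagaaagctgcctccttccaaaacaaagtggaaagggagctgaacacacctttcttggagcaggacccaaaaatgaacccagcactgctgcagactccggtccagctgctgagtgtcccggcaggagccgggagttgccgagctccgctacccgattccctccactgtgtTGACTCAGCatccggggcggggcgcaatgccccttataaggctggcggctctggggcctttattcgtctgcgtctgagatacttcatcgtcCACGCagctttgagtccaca
Mt1: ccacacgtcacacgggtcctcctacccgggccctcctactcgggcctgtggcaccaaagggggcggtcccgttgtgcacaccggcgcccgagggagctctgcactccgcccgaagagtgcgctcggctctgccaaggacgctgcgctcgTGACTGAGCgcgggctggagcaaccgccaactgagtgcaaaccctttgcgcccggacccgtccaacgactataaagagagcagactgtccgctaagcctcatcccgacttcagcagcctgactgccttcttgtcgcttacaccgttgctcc
The Nqo1 window is chr19:52220218-52220517 on the minus strand and holds 1 AhR core, which begins at base -10 from the start. The Gstp1 window is chr1:210769656-210769955 on the minus strand and holds 2 AhR cores and 1 antioxidant element, the latter at -61. The Mt1 window is chr19:10832926-10833225 on the minus strand and holds 1 antioxidant element at -101 and no AhR core. The AhR core occurred in 31.1% of all 27457 promoters of this length, in 47.2% of those of tested genes and in 22 of 69 (31.9%) of those of genes that rose. For the antioxidant element the shares were 12.2%, 14.9% and 14.5%. Among genes that fell, each of the 2 elements occurred in 4 of 17 (23.5%). The window of Gsto1, also a called gene, held neither. A match describes letters in these windows and is no measure of binding.

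Lcn2, S100a9 and C3 were the largest rises outside the AhR targets, and all 3 encode secreted defence proteins. Lcn2 (lipocalin 2, which binds bacterial siderophores) read 2.09 and 2.48 at 2 hours, 2.02 and 2.71 at 6 hours, and 1.53 and 3.18 at 20 hours. Its mean was 2.33 ± 0.08, or 5.05-fold (adjusted p = 5.57e-07). C3, the central complement component, read 1.77 and 2.79, 0.86 and 1.29, and 0.53 and 1.56 at the same hours, with a mean of 1.47 ± 0.20 (adjusted p = 0.00500, and 0.108 with the robust prior). At each hour the high dose lay above the low dose for both genes.

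Acute phase and complement genes rose in 11 of 21 members and none fell, with a median of 0.52. The complement members that rose were C3, the 3 chains of C1q that start the classical pathway (C1qa at 0.67, C1qb at 0.59 and C1qc at 0.55), the protease factor I (Cfi, 0.58) and the inhibitor C4bpa (0.87). The others were Lcn2, haptoglobin (Hp, 0.53), kininogen (Kng2, 0.87), fetuin B (Fetub, 0.79) and the antibody transporter of epithelia, Pigr (0.52). C1s, C4a and A2m were at 0.12, -0.19 and -0.11 and did not pass. The low dose alone called 3 members and the high dose alone 14. Without the 2, 6 or 20 hour samples, 1, 4 and 5 members passed.

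Chemokines and cytokines rose in 6 of 17 members and fell in 1, with a median of 0.19. Cxcl1, which attracts neutrophils, read 1.53 and 1.30 at 2 hours, 1.14 and 2.46 at 6 hours, and 0.71 and 1.24 at 20 hours, all above air. The mean was 1.40 ± 0.14 (adjusted p = 0.00095). The other rises were Ccl3 (0.92) and Ccl9 (0.72), which attract monocytes, Il1b (0.73 ± 0.12), Tnfsf13 (the B-cell factor APRIL, 0.74) and Csf2 (GM-CSF, 0.52). Cxcl14, a chemokine of resting epithelia, fell: it read -0.25 and -0.97, -1.0 and -1.74, and -0.34 and -0.30, a mean of -0.77 ± 0.17 (adjusted p = 0.0403). Cxcl14 did not pass with the robust prior, nor at the low dose alone (mean -0.53, adjusted p = 0.178). Ccl2, which attracts monocytes, was at 0.30 ± 0.08 and did not pass (adjusted p = 0.104, and 0.0392 with weeks and hours as factors). Il1r2, the decoy receptor of interleukin 1, rose by 0.88 ± 0.08 and stands in the glucocorticoid-responsive list, where 3 of 15 members rose, the others being Lcn2 and Mt1. Of the chemokine and cytokine calls none was left without the 2 hour samples, while 4 rises passed without those of 6 hours and 3 without those of 20 hours.

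Markers of macrophages rose in 9 of 18 members, and 1 fell; the median was 0.51. In whole tissue, more cells of a type and more RNA per cell cannot be told apart. Lgals3 (galectin 3) read 1.23 and 1.45 at 2 hours, 1.21 and 1.20 at 6 hours, and 0.80 and 1.74 at 20 hours, a mean of 1.27 ± 0.08 (adjusted p = 8.26e-05). Cd68, a lysosomal membrane protein of macrophages, read 0.86 and 1.25, 0.91 and 1.58, and 0.56 and 1.21, a mean of 1.06 ± 0.09 (adjusted p = 0.000585). For Cd68 the high dose was above the low dose at all 3 hours, but the difference did not pass (0.57 ± 0.14, adjusted p = 0.273). Also higher were Ctsd, Ctss and Ctsb (lysosomal proteases, 0.83, 0.76 and 0.59), Cd63 (0.64), Cd14 (0.53), Lyz2 (lysozyme, 0.50) and Mmp12. Of the list 1 member passed without the 2 hour samples (Lgals3), 6 without those of 6 hours and 5 without those of 20 hours.

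Mmp12, the macrophage elastase, stood at 0.75 ± 0.08 (adjusted p = 0.00144). It read 0.58 and 0.80 at 2 hours, -0.12 and 1.54 at 6 hours, and 0.57 and 1.14 at 20 hours. The low dose alone, with a mean of 0.34, did not pass (adjusted p = 0.395). Spp1 (osteopontin) read 1.74 and 1.85, -0.20 and -0.30, and 1.14 and 0.21, and its mean of 0.74 ± 0.28 did not pass (adjusted p = 0.223).

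Of the 8 macrophage markers that did not pass, 5 lay above air (Spp1, and Mrc1, Fcgr2b, Tyrobp and Fcgr1a at 0.19 to 0.28) and 3 below (Csf1r, Aif1 and Apoe). Adgre1, the surface antigen F4/80, fell by 0.68 ± 0.10 (adjusted p = 0.00548), and all 6 samples lay between -0.94 and -0.30. Csf1r, the growth factor receptor of macrophages, was at -0.17, Aif1 at -0.05 and Apoe at -0.03. Retnla, a secreted protein of alternatively activated macrophages, rose by 1.08 ± 0.11 (adjusted p = 0.00095), and its 2 probes read 1.08 each. Its samples ran from 0.105 (low dose) to 1.93 (high dose), both at 20 hours. The low dose alone, with a mean of 0.70, did not pass for Retnla (adjusted p = 0.142). Of 21 lysosomal genes 11 rose and none fell, with a median of 0.43. The list shares Cd68, Cd63, Ctsb, Ctsd and Ctss with the macrophage list, and its other rises include Ctsz (0.71), Acp5 (0.68) and Hexa (0.48). Without the 2, 6 or 20 hour samples 0, 6 and 3 lysosomal genes passed. In lipid metabolism 3 of 33 members rose: Fabp5 (a fatty acid carrier, 0.88), Lpl (lipoprotein lipase, 0.60) and Abcg1 (a cholesterol exporter, 0.47, with an adjusted p of 0.106 with the control pool as a random block).

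**Figure D2:**
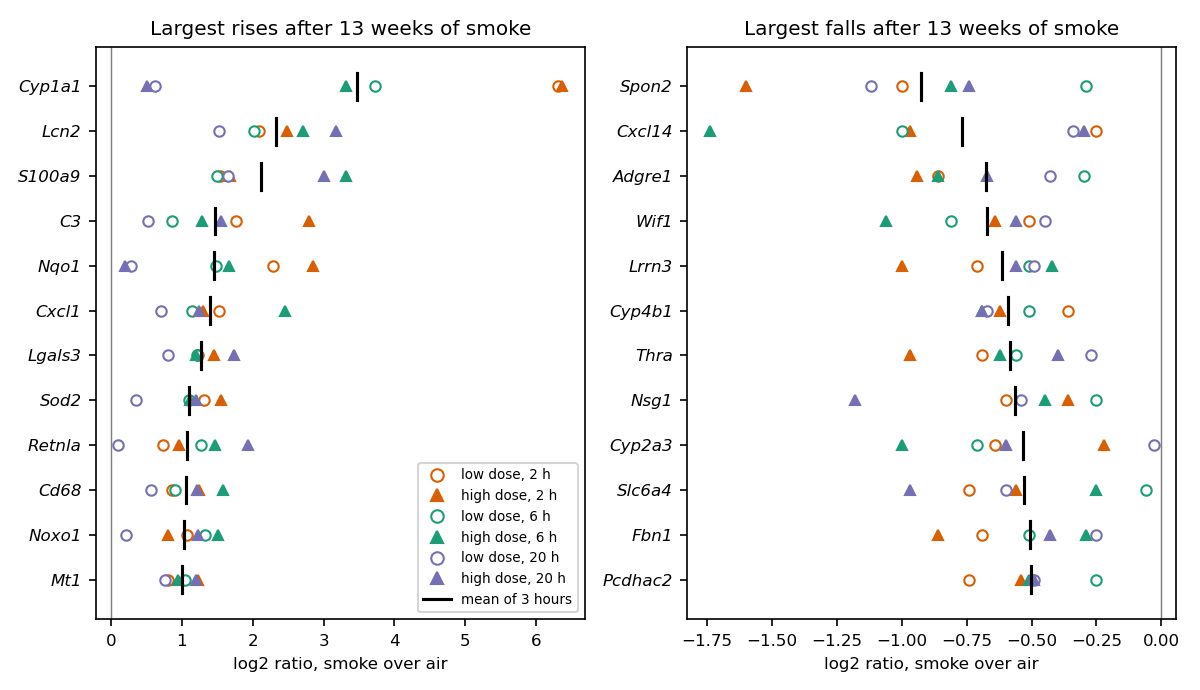
Log2 ratio of smoke over air (horizontal axis) in each of the 6 samples after 13 weeks, for called genes of 1 sign in all 6 samples. The 12 largest such rises are on the left and the 12 largest such falls on the right. Hours are shown by colour, low dose as open circles, high dose as triangles and the mean of 3 hours as a bar. The samples of Lcn2 all lie between 1.53 and 3.18, those of Cyp1a1 run from 0.51 to 6.37, and those of Spon2 from -1.60 to -0.29.

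Markers of neutrophils and mast cells split into those that rose and those that did not pass, which lay between -0.26 and 0.19. Of 8 tested, S100a9, S100a8 and Cxcr2 rose. S100a9, which with S100a8 forms the calcium-binding protein calprotectin, read 1.54 and 1.68 at 2 hours, 1.5 and 3.32 at 6 hours, and 1.65 and 3.0 at 20 hours, a mean of 2.12 ± 0.14 (adjusted p = 8.26e-05). The high dose at 6 and 20 hours stood apart from the other 4 samples. S100a8 was at 0.96 ± 0.18 (adjusted p = 0.0224), and Cxcr2, the receptor for Cxcl1, at 0.82 ± 0.09 (adjusted p = 0.00125). The granule enzyme Mpo was at 0.19, Retnlg at -0.16, Fcnb at -0.21, the mast cell protease Mcpt1 at 0.06 and the mast cell receptor Kit at -0.26, and none of these 5 passed. Without the 2 hour samples S100a9 alone passed, and 2 of the 3 passed without either other hour. With the robust prior 2 of the 3 passed.

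Lymphocyte markers were mostly a little below air: 16 of 18 means were under 0, against 1919 of 3836 genes above 0 in the whole table, and the median was -0.22. Cd79b, a part of the B-cell receptor, was the only call, at -0.38 ± 0.08 (adjusted p = 0.0424). It did not pass with the control pool as a random block over the 6 samples (adjusted p = 0.108), and adjusted p was 0.0229 to 0.689 over the alternatives. Of the list, 9 of 18 had an unadjusted p under 0.05, against 650 of 3836 genes in the whole table. Among antigen presentation and interferon genes 2 of 13 rose, the class II genes RT1-DMb (0.49) and RT1-Da (0.41). Ifit1 and Irf7, which interferon switches on, were at 0.06 and -0.26 and did not pass.

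Epithelial, vascular and other tissue markers are set here beside all genes tested. Of those 3836 genes 113 passed (2.95%), and 650 had an unadjusted p under 0.05. Of 9 alveolar markers Napsa (0.43 ± 0.09) and Sftpd (surfactant protein D, 0.40 ± 0.08) rose, both products of type 2 cells. Of the other type 2 markers, Sftpa1 was at 0.39 and Lpcat1 at -0.12, and neither passed. The type 1 markers Aqp5, Ager and Pdpn were at -0.32, -0.16 and -0.19 and did not pass. None of 6 airway markers passed, nor had any an unadjusted p under 0.05. Of 25 genes on the endothelial and smooth muscle list Vegfa alone passed, and it fell by 0.38 ± 0.08 (adjusted p = 0.0464). Vegfa is a secreted growth factor for vessels, not a marker of vessel cells. The list's means ran from -0.42 to 0.49, with a median of -0.11. No marker passed among 11 of striated muscle (4 with an unadjusted p under 0.05) and 4 of blood (1).

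Matrix genes were the list with most falls, 5 of 37, and 2 rose. Spon2, a secreted matrix protein, had the largest fall of all genes called: it read -1.0 and -1.60 at 2 hours, -0.29 and -0.81 at 6 hours, and -1.12 and -0.74 at 20 hours. Its mean was -0.93 ± 0.13, or 1.90-fold lower (adjusted p = 0.00495). Col3a1, the fibrillar collagen type III, fell by 0.59 ± 0.11 and was below air in 5 of 6 samples, and Fbn1 (fibrillin 1) fell by 0.51 ± 0.10. The others were the elastin cross-linker Loxl1 (-0.45) and periostin (Postn, -0.38). Col1a1 read -1.32 and -1.22 at 2 hours, -0.74 and -0.62 at 6 hours, and 0.15 and -0.36 at 20 hours, and its mean of -0.69 ± 0.17 did not pass (adjusted p = 0.0798). The rises were Mmp12 and Plaur (the urokinase receptor, 0.67), and the list's median was -0.14. No fall of the list passed without the 2 hour samples, 1 passed without those of 6 hours (Spon2) and 2 without those of 20 hours.

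Of 37 genes of Wnt and growth factor signalling 2 fell. Wif1, a secreted inhibitor of Wnt ligands, read -0.51 and -0.64 at 2 hours, -0.81 and -1.06 at 6 hours, and -0.45 and -0.56 at 20 hours, a mean of -0.67 ± 0.10 (adjusted p = 0.00746). Inhba, a subunit of activin, was at -0.44 ± 0.09 (adjusted p = 0.0284). Of the 12 largest called falls with all 6 samples below air, some belong to none of the gene lists. They were Lrrn3 (-0.61 ± 0.10), Nsg1 (-0.56 ± 0.11), the serotonin transporter Slc6a4 (-0.53 ± 0.12) and the protocadherin Pcdhac2 (-0.50 ± 0.09). Noxo1, which organises a superoxide-producing NADPH oxidase, was among the 12 largest rises at 1.03 ± 0.12 (adjusted p = 0.00249).

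**Figure D3:**
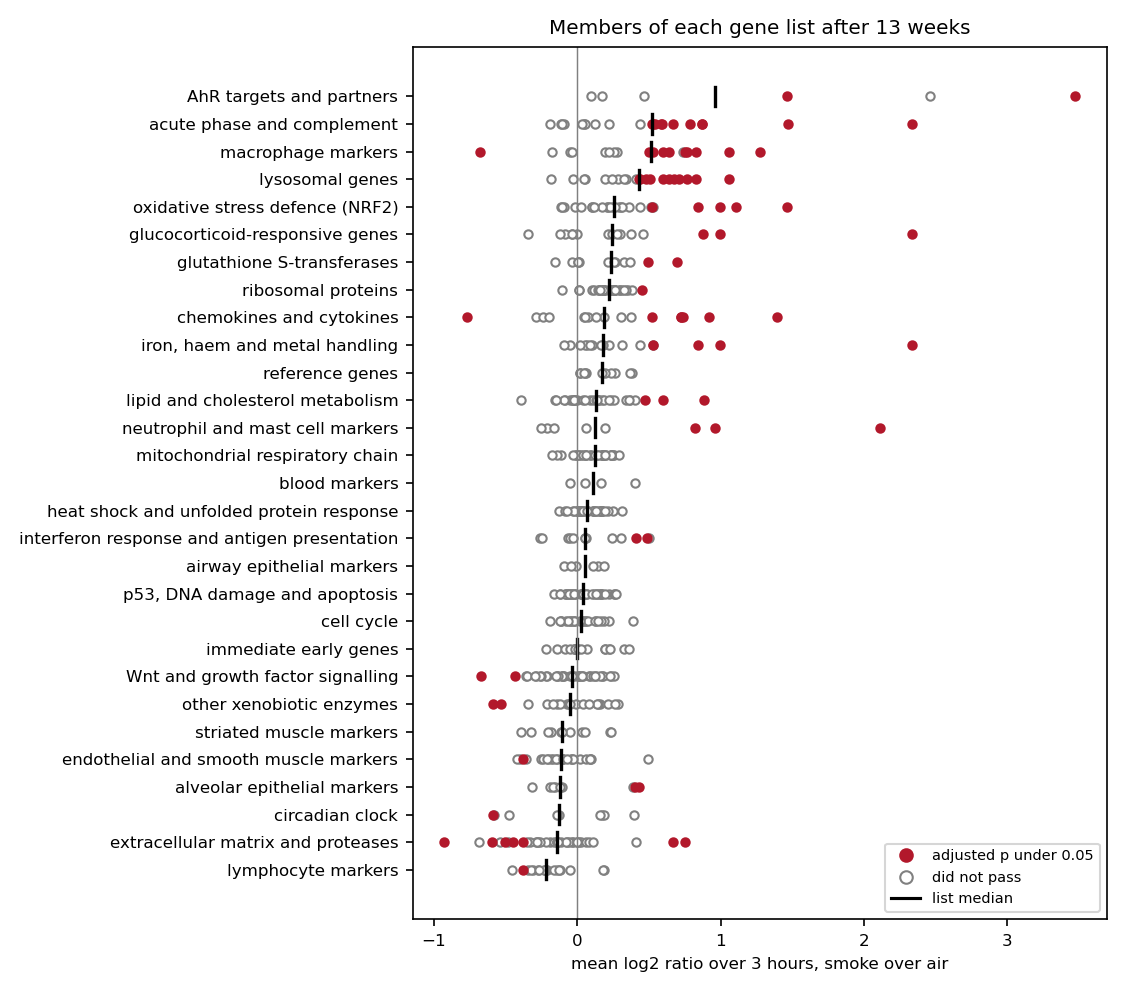
Mean log2 ratio of smoke over air after 13 weeks (horizontal axis, mean of 3 hours) for each tested member of 29 gene lists (rows, ordered by median), filled red where adjusted p was under 0.05, with the list median as a bar. AhR targets have the highest median at 0.96 and lymphocyte markers the lowest at -0.22.

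Several housekeeping and stress lists held few calls or none. Over all genes 113 of 3836 passed (2.95%), and 650 had an unadjusted p under 0.05. No member passed among 24 cell cycle genes (1 with an unadjusted p under 0.05), 34 genes of p53, DNA damage and apoptosis (3), 33 of heat shock and the unfolded protein response (3), 18 immediate early genes (4) and 31 of the mitochondrial respiratory chain (8). With weeks and hours as factors these lists had 1, 1, 1, 2 and 1 calls. The largest values were small, such as Aurka at 0.39 and Hspa1a at 0.31. Ribosomal protein genes lay slightly above air in 32 of 33 members, with a median of 0.23 (0.04 after 2 weeks and 0.13 after 7), and Rps2 passed (0.45 ± 0.09). With weeks and hours as factors 9 of the 33 passed, all higher, against 9.35% of all genes. Reference genes also lay above air in 11 of 11, with a median of 0.17, and none passed (4 with an unadjusted p under 0.05). With weeks and hours as factors 4 of the 11 passed, all higher.

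Values of clock genes differed in sign between hours. Dbp, an output factor of the clock, read 1.12 and 1.36 at 2 hours, -1.43 and -2.56 at 6 hours, and 1.73 and 2.14 at 20 hours. Bmal1, the activator of the clock, ran opposite, with -1.0 and -2.06, 1.20 and 1.67, and -1.36 and -1.94. Nr1d2, a repressor of Bmal1, read 0.51 and 0.18, -0.89 and -1.69, and 1.29 and 1.65. For these genes the 2 doses of an hour had the same sign, and the 6 hour samples stood apart from those of 2 and 20 hours. Their means over hours did not pass (adjusted p = 0.755, 0.566 and 0.844), though Bmal1 did with weeks and hours as factors (adjusted p = 0.0223). The means of both doses had the same signs at all 3 hours after 2 and 7 weeks. For Bmal1 the mean at 2 hours was -1.035 after 2 weeks and -1.02 after 7. At 6 hours it was 0.68 and 1.42, and at 20 hours -2.19 and -2.15. Hours were described, not tested, since each has 1 control pool at 13 weeks. Thra, the thyroid hormone receptor alpha, was the only clock-list call (-0.59 ± 0.10). It overlaps Nr1d1 (-0.47 ± 0.12, adjusted p = 0.0671) on the opposite strand, so the values of the pair are uncertain. No fall of the clock list passed at the low dose alone, without the 2 hour samples or without those of 20 hours. Without the 6 hour samples 1 fall passed.

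The second question was what set 13 weeks apart from shorter exposure. In a fit over 9 pool means with hours as a factor, the mean log2 ratio after 13 weeks was compared with the mean of 2 and 7 weeks. Of 3560 genes with a value in every pool, 2 passed (0.0562%), S100a9 and S100a8, both higher after 13 weeks, and 149 had an unadjusted p under 0.05. A constant dye effect cancels here.

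S100a8 was lowest after 2 weeks, with pool means of -1.70 at 2 hours, 0.06 at 6 hours and -0.78 at 20 hours. After 7 weeks it read -0.59, 0.78 and 0.39, and after 13 weeks 0.27, 1.46 and 1.16. At each hour the values were ordered 2, 7 and 13 weeks, lowest first, and within each week the 6 hour value was highest. The difference, 13 weeks minus the mean of the other weeks, was 1.27 ± 0.10 (adjusted p = 9.89e-05). S100a9 had the same order at each hour and a difference of 1.74 ± 0.15 (adjusted p = 0.000131), from means of -0.41 after 2 weeks, 1.16 after 7 and 2.12 after 13.

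Against 7 weeks alone the differences were 0.77 ± 0.12 for S100a8 and 0.96 ± 0.18 for S100a9 and did not pass (adjusted p = 0.0930 and 0.267). That comparison called no gene, with 90 at an unadjusted p under 0.05. Without hours as a factor no gene passed either, with 79 at an unadjusted p under 0.05. Leaving out an hour kept both genes, and added Retnla without 2 hours and Cyp1a1 without 6 hours. The other neutrophil markers gave no such call: Cxcr2 had means of 0.22, 0.52 and 0.82 after 2, 7 and 13 weeks (adjusted p = 0.827), and Mpo 0.05, 0.15 and 0.19.

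**Figure D4:**
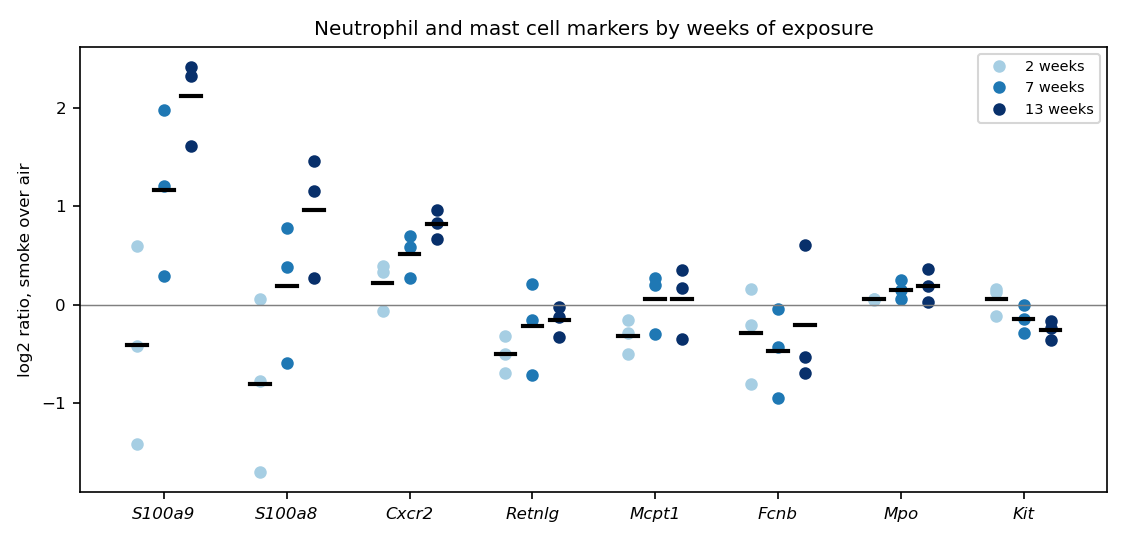
Log2 ratio of smoke over air (vertical axis) for the 8 tested neutrophil and mast cell markers (horizontal axis) after 2, 7 and 13 weeks, with 1 point per control pool (mean of low and high dose at an hour) and the mean of 3 hours as a bar. S100a9 and S100a8 rise from means of -0.41 and -0.81 after 2 weeks to 2.12 and 0.96 after 13, while Mpo stays between means of 0.05 and 0.19.

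Against 2 weeks alone 8 genes passed (0.225%), all higher after 13 weeks. Besides S100a9 (2.53 ± 0.18) and S100a8 (1.77 ± 0.12) they were the platelet chemokine Pf4 (0.88), Lcn2 (0.71), transferrin (Tf, 0.65), Cybb (the catalytic subunit of the phagocyte NADPH oxidase, 0.64), Lgals3 (0.64) and Il1b (0.61). Lcn2 had means of 1.62, 2.57 and 2.33 after 2, 7 and 13 weeks and Lgals3 0.63, 1.37 and 1.27, so both stood highest after 7 weeks. Cybb and Pf4 were near or below air after 2 weeks (-0.02 and -0.48) and above it after 13 (0.62 and 0.40).

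The gene lists are given here as medians over weeks, without a test. The macrophage list had medians of 0.29, 0.46 and 0.51 after 2, 7 and 13 weeks, the lysosomal list 0.19, 0.40 and 0.43, and the acute phase and complement list 0.26, 0.65 and 0.52. The AhR list was at 0.99, 1.03 and 0.96. Over all genes the medians lay between -0.003 and 0.005. For Cyp1a1 the difference of 13 weeks from the mean of the others was 0.48 ± 0.29 (adjusted p = 0.963), and for Nqo1 -0.12 ± 0.09 (adjusted p = 0.963).

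Of 3560 genes, 24 had all 3 values after 13 weeks above those of the other 6 pools (0.674%) and 19 below (0.534%). How often other groups of pools would stand out in this way was not tested. The genes below are the largest of these by 13 weeks minus the mean of 2 and 7 weeks, and did not pass. On the high side they were Sqle (squalene epoxidase of cholesterol synthesis, 0.35 ± 0.09), Il2rg (0.26 ± 0.09), Lrp6 (a Wnt co-receptor, 0.23 ± 0.08) and Snx2 (0.22 ± 0.09). On the low side they were Gpr35 (-0.41 ± 0.10), Fos (-0.26 ± 0.10), Lrat (-0.25 ± 0.08) and Slc25a25 (-0.23 ± 0.09). Against air after 13 weeks, those on the high side were at 0.34, 0.07, 0.23 and 0.295, in the same order. Those on the low side were at -0.20, -0.22, -0.195 and -0.16.

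The third question was whether the response after 13 weeks depended on dose. The control pool of an hour is common to both doses and cancels in high minus low, which was tested over the 3 hours. Of 3836 genes 1 passed (0.0261%), Dmbt1, and 181 had an unadjusted p under 0.05. Dmbt1, a scavenger receptor secreted by epithelia of the airway and gut, read -0.38, 0.18 and -0.27 at the low dose and 1.13, 0.82 and 1.47 at the high dose (2, 6 and 20 hours). The doses did not overlap. The difference was 1.30 ± 0.18 (adjusted p = 0.00853), and against air the gene's mean was 0.49 ± 0.09 (adjusted p = 0.0154, and 0.301 with the control pool as a random block), made up of 1.14 at the high dose and -0.16 at the low dose. The call rests on all 3 hours: leaving out any 1 of them ended it, with differences of 1.08 to 1.62 and adjusted p of 0.642 to 0.936.

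C3 and Tnfaip2 (a gene that tumour necrosis factor switches on) came next, with the high dose above the low dose at all 3 hours, and did not pass. C3 differed by 0.83 ± 0.15 and Tnfaip2 by 0.77 ± 0.14 (adjusted p = 0.0813 each). S100a9 differed by 1.10 ± 0.22 (adjusted p = 0.113) and Lcn2 by 0.91 ± 0.19 (adjusted p = 0.119). Cyp1a1 differed by -0.15 ± 0.15 and Nqo1 by 0.22 ± 0.15 (adjusted p = 0.995 each). On the low side, values that did not pass were Ccng1 (-0.68 ± 0.17), the haemoglobin gene Hbb (-0.66 ± 0.15), Ctsw (-0.54 ± 0.14) and Ccl11 (-0.53 ± 0.14). As list medians over the low and high dose, acute phase and complement read 0.24 and 0.64, macrophage markers 0.38 and 0.54, lysosomal genes 0.34 and 0.51, AhR targets 0.90 and 1.03, and all genes 0 and 0.003.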

How the data were processed

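The authors deposited 1 table of 11994 rows of log2 ratios, smoke (Cy5) over air (Cy3) per the labels, 1 column per sample. The 2 customized arrays of a sample are joined in that table. Of 257 values below -1, 100% are the log2 of a ratio of 2 decimals (natural log 10.1%, log10 17.9%). How spots were scanned, filtered and normalized is not given in the sources used here, and signal intensities were not used. Rows repeating the values of a probe or gene were merged to 5925 probes, of which 4763 have a symbol of the platform annotation. Probes of a gene were averaged (115 of 4616 genes have several; the 3 rows of Cxcl1 hold equal values after 13 weeks).

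Python 3.11.15 read the table, and R 4.3.3 with limma 3.58.1 and statmod 1.5.0 ran lmFit and eBayes (two-sided, Benjamini-Hochberg, threshold 0.05). The code was checked on simulated data with independent normal noise, a check that set no limit on false calls. A value at all 3 hours was needed, which left out 780 genes. For weeks, 9 pool means were fitted with weeks and hours. The number of arrays limits the precision. Alternatives were single doses, the control pool as a random block, fits over all weeks, centring, fewer hours, single probes, a robust prior, a minimum fold and leaving out an hour.

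Named genes are the 12 largest called rises and falls of 1 sign in all 6 samples, calls between weeks and doses (or largest values), the 6 of largest range over hours, up to 4 per list and a fixed set. Sftpc, Scgb1a1 and Per2 of that set were not analysed here. Other list members in the text were picked with their values in view. The samples and 29 lists were chosen with earlier results of these data known.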

Additional observations from a re-analysis of the deposited data

Results flagged for a closer look

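S100a8 and S100a9 differed between weeks of exposure in the fit over 9 pool means. After 13 weeks the log2 ratio of smoke over air was higher than the mean of 2 and 7 weeks by 1.27 for S100a8 and by 1.74 for S100a9, and at each of 3 hours the order was 2, 7 and 13 weeks.

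Dmbt1 differed between doses after 13 weeks, with high minus low at 1.30 and the high dose above the low dose at all 3 hours.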

How the results depend on the processing

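Against air, 113 genes passed. The low dose alone gave 27, the fit with weeks and hours as factors 333 (211 higher, 122 lower), and a minimum of 1.5-fold 59. Leaving out an hour gave 3 to 39. The control pool as a random block gave 169, of which 105 were among the 113, and centring each sample gave the same 113. Between weeks, 2 genes passed. No gene passed without hours as a factor (0, with 79 at an unadjusted p under 0.05) or against 7 weeks alone (0, with 90), 1 passed at the low dose, 8 against 2 weeks alone, and 2 to 3 without an hour. Between doses, 1 gene passed, with 3 under the robust prior, 0 over 9 differences of all weeks (204 at an unadjusted p under 0.05; Dmbt1 could not be fitted there) and 0 without any hour (129 to 142). Reversed signs were those of Dmbt1 against air at the low dose alone (-0.16) and of Dbp, which did not pass, without 2 hours (-0.03) and without 20 hours (-0.38); without 6 hours Dbp was at 1.59 and passed. For the 53 named genes called against air, 410 of 581 alternative values stayed on the same side of the threshold, 170 lost the call and 1 reversed. The cause of these moves was not tested, beyond the fewer samples left without an hour. A gene missing at an hour was not tested, and signal over background is unknown.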

Other observations

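Of the 113 genes called against air after 13 weeks, 46 belong to none of the 29 lists. The examples that follow were chosen after their values were seen. Pld3, a lysosomal phospholipase-family protein, was at 0.98 ± 0.13, Bcl2a1, a survival protein of myeloid cells, at 0.96 ± 0.14, and Fcgr2a, an antibody receptor of phagocytes, at 0.95 ± 0.10. Naaa, a lysosomal amidase, was at 0.88 ± 0.09 and Ggt1, which breaks down extracellular glutathione, at 0.85 ± 0.16. Cyba, the membrane partner of Cybb in the phagocyte oxidase, was at 0.69 ± 0.08 with Cybb at 0.62 ± 0.11. Ctla4, an inhibitory receptor of T cells, was at -0.41 ± 0.08 and below air in all 6 samples.

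Of 87 genes that rose and had values in all weeks, 80 lay higher after 13 weeks than after 2 weeks and 47 higher than after 7 weeks. They were selected at 13 weeks, which favours that time in such a count.

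Among 923 probes without a gene symbol, 7 were called higher and 3 lower against air when every probe was tested on its own (1.08%).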
